A study of Mus musculus with 38 samples.

Results

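The regions described here are stretches of mouse chromatin that carried a call for trimethylated lysine 9 of histone H3 (H3K9me3) in IκBα-WT (WT) embryonic stem cells and carried none in IκBα-KO (KO) cells. The H3K9me3 calls of all 6 libraries were merged wherever they overlapped by at least 1 bp, and a merged region was kept when it was called in 3 of 3 WT lists and in 0 of 3 KO lists. Chromosomes 1 to 19 were used, without 3 segments of chromosomes 2, 8 and 12. Of 52065 merged regions that could be chosen, 1233 met this rule (2.37%), and they are called WT-only regions or members below. The members were thus selected on their H3K9me3 calls, and their H3K9me3 widths and read ratios are given as a description, without a test.

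The study had profiled 5 histone marks by ChIP-seq in ES-E14TG2a mouse embryonic stem cells grown in serum with leukaemia inhibitory factor and taken at 0 h, with 3 WT and 3 KO libraries per mark. In the KO cells the first exon of Nfkbia, the gene of IκBα, had been targeted with CRISPR guides, whereas the WT cells had received scrambled guides. According to the methods, the 3 libraries of a genotype came from independent clones, so a library stands for 1 clone, and p-values measure the spread between these clones. Each genotype had 1 H3K9me3 input, so that a difference of the inputs and a difference of the genotypes cannot be told apart in the calls.

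H3K9me3 is a mark of heterochromatin, laid down at retrotransposons, satellite repeats and clusters of zinc-finger genes. It is also found at imprinting control regions, where 1 of the parental copies is DNA-methylated. In embryonic stem cells the zinc-finger protein ZFP57 binds the methylated hexamer TGCCGC in these regions and recruits KAP1 (Trim28) and the H3K9 methyltransferase SETDB1. The unmethylated copy usually carries H3K4me3, a mark of active promoters. H3K27me3 is the Polycomb mark, H3K27ac marks active promoters and enhancers, and H3K4me1 marks enhancers.

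Among the 20 WT-only regions with the most called sequence, 12 lay at genes of a list of imprinted genes, and the sequences of 5 wide members are shown because the values below turn on them. Each window is 300 bases of the plus strand of GRCm38, read 5′ to 3′ from the part of the member called in all WT lists, and was chosen as the stretch without annotated exon that held the most TGCCGC. The capitals mark TGCCGC and its reverse complement GCGGCA. The Plagl1, Mest and Gpr1 windows lie in introns of these genes, the Airn window lies in an intron of Igf2r just inside Airn, and the Rasgrf1 window is intergenic, 29977 bp before the start of Rasgrf1.
Plagl1, chr10:13091031-13091330: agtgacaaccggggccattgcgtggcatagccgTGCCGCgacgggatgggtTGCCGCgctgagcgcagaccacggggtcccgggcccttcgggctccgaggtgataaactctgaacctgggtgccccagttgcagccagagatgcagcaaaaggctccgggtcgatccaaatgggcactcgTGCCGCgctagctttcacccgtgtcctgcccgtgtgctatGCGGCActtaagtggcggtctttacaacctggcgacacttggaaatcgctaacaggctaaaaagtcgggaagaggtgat
Mest, chr6:30737401-30737700: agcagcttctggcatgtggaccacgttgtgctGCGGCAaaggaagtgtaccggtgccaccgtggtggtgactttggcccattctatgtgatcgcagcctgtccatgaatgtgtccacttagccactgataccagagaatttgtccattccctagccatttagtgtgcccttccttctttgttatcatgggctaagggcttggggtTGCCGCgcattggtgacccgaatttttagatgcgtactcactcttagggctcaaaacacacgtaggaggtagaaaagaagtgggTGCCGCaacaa
Airn/Igf2r, chr17:12741731-12742030: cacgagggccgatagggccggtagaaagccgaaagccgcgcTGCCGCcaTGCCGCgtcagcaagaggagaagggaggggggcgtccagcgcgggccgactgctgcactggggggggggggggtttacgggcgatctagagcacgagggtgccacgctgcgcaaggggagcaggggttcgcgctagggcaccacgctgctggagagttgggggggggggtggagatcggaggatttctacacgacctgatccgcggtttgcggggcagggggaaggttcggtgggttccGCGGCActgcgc
Gpr1, chr1:63199971-63200270: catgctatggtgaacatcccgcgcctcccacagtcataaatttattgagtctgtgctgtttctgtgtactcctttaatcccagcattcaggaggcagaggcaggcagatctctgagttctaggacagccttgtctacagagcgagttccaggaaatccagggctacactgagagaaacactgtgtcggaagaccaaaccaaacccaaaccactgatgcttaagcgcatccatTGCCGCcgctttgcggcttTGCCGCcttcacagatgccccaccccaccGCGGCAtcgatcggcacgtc
Rasgrf1, chr9:89879631-89879930: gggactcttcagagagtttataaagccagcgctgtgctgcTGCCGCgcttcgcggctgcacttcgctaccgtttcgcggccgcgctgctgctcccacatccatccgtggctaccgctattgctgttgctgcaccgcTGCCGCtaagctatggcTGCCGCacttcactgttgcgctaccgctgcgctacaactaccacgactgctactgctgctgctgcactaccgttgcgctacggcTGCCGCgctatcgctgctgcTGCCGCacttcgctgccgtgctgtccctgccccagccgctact

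The windows held 4, 3, 3, 3 and 5 matches in the order shown, a number that the choice of window favoured. Windows chosen in the same way held 4 at Snrpn/Snurf and Inpp5f and 3 at H13/Mcts2, Gnas/Nespas, Peg3/Usp29 and H19. They held 1 at Herc3/Nap1l5, Blcap/Nnat and Trappc9 and 0 at Kcnq1/Kcnq1ot1, so the windows shown do not stand for all imprinted members. No window was taken at Impact, whose narrow member held 5 matches in 3600 bases. Over whole regions, with both strands searched, TGCCGC occurred 0.529 times per kb in the 14 members at listed imprinted genes, 0.108 times per kb in the other 1219 members and 0.0899 times per kb in all merged H3K9me3 regions. The hexamer was present in all 14 members at imprinted genes and in 24.0% of the others, beside 29.4% of all regions and 39.8% of those called in all 6 libraries. It was also present in all 20 members with the most called sequence, on the imprinted list or not, so its presence went with width. In the central 300 bases, which were not chosen for it, 4 of the 14 held a match (28.6%), as against 3.86% of the other members and 3.07% of all regions. Members at imprinted genes had a median GC content of 46.9% and a median ratio of observed to expected CpG of 0.288, and all members together 43.4% and 0.161. Soft-masked repeats made up a median of 16.6% of the members at imprinted genes, 34.1% of all members and 47.5% of the H3K9me3 regions called in all 6 libraries. A match is a description of the sequence and was not set against binding data.

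Most WT-only regions were narrow and weakly enriched. Their median width was 3200 bp, with an interquartile range of 2400 to 4200 bp and a full range of 200 to 25800 bp, whereas the 24280 regions called in all 6 libraries had a median of 6200 bp. Together they covered 4.514 Mb of the 275.151 Mb of merged regions. Only 25 members (2.03%) were at least 10 kb wide, as against 20.8% of the regions called throughout and 10.3% of all regions. The ratio of ChIP reads to input reads had a median of 1.85, 1.57 and 1.56 in WT libraries 1, 2 and 3, and of 2.85, 2.41 and 2.42 in the regions called throughout. It is a ratio of raw counts, not scaled for the depth of ChIP and input. Its level and its differences between libraries therefore also depend on depth. Just outside the rule, the 2238 regions called in 3 WT and 1 KO library had medians of 2.00, 1.66 and 1.68, and the 2338 regions called in 2 WT and 0 KO libraries had medians of 1.82, 1.48 and 1.52.

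The number of members moved with how the calls were ranked. The WT lists held 52748, 44671 and 49207 calls and the KO lists 49774, 35979 and 40345. Where each library was cut to the same number of its top-ranked calls, 583 regions were WT-only and 669 were KO-only, as against 1233 and 198 with the lists as deposited. Of the 1233 members, 276 then still overlapped a WT-only region, and of the 14 at imprinted genes 12 did. Leaving out a library relaxes the rule to the remaining libraries, whose calls were merged anew, and the number of members rose each time. It was 2591 without WT library 2, 1892 without WT library 3 and 3012 without KO library 1. With calls at a false discovery rate (FDR) under 0.01 there were 1277, which 1158 of the members and all 14 at imprinted genes overlapped. The nearest KO call lay at a median distance of 12600 bp, and 61 members (4.95%) had one within 1000 bp. Counts of input reads in windows of 1 Mb, taken from the H3K9me3 lists, differed between KO and WT by a median of 0.02 on the log2 scale in windows that held a member and by -0.14 to 0.18 in the windows of the 14 members at imprinted genes.

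**Figure D1:**
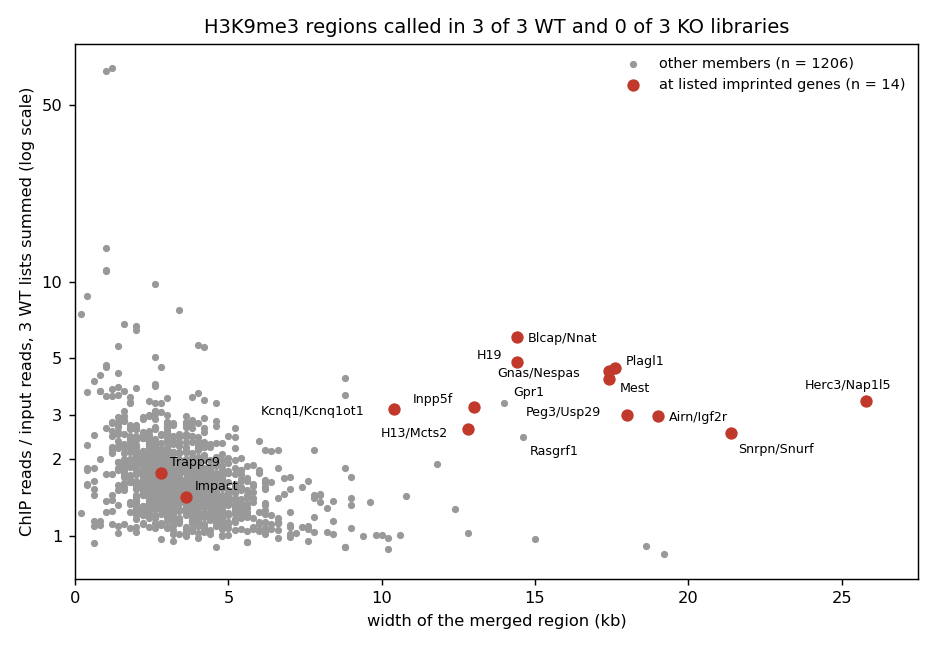
Width of each WT-only H3K9me3 region (x axis, kb) against its ratio of ChIP to input reads summed over the 3 WT lists (y axis, log scale), for the 1220 members with input reads in the summed lists. Grey points are members elsewhere and red points the 14 at listed imprinted genes, of which 12 are at least 10 kb wide with a ratio above 2, apart from the bulk near 3.2 kb and 1.63.

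The imprinted genes were the one gene group with several of the widest WT-only regions. Of 46 listed genes, 41 lay in the chromosomes and segments used and 22 had a member at the gene body or promoter. The list held 73 merged H3K9me3 regions, of which 14 were members (19.2%, beside 2.37% of all regions), spread over 7 chromosomes. They included 9 of the 10 members with the most called sequence. Their median width was 15900 bp and their median summed ratio 3.19, as against 3200 bp and 1.63 in the other members. Of the 14 members at least 10 kb wide with a ratio of 2 or more, 12 were at listed imprinted genes, and the other two were the members at Gpr1 and before Rasgrf1. Gpr1 adjoins the imprinted gene Zdbf2. Rasgrf1 is on the list, and its imprinting control region is known to lie upstream of the gene, beyond the promoter window used here.

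At the widest member, chr6:58896401-58922200, the paternally expressed retrogene Nap1l5 sits in an intron of Herc3. H3K9me3 calls there covered 22200, 22600 and 25000 bp in the WT libraries and 0 bp in each KO library, and the WT ratios were 3.93, 3.24 and 3.04. The highest ratios of the group were at chr2:157553001-157567400, which holds the membrane-protein gene Nnat in an intron of Blcap, with 6.97, 5.73 and 5.62. Plagl1, a zinc-finger transcription factor gene, had 6.47, 3.84 and 4.10 at chr10:13086201-13103800. H19, a maternally expressed non-coding RNA next to Igf2, had 6.01, 4.39 and 4.34 at chr7:142574001-142588400, a member that spans the gene and the sequence before it. These ratios were above the WT medians of the regions called in all 6 libraries.

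Further members lay at the following loci outside chromosome 7. Gnas/Nespas, the locus of the stimulatory G protein alpha subunit and its antisense transcript, had 4.91, 4.14 and 4.31 at chr2:174288401-174305800. Mest, a paternally expressed gene of the hydrolase fold, had 4.34, 4.37 and 3.72 at chr6:30728401-30745800. Airn, the non-coding RNA that silences Igf2r on the paternal copy, had 3.32, 2.82 and 2.75 at chr17:12732201-12751200. The Gpr1 member at chr1:63193601-63207600 had 4.06, 2.81 and 3.32, and the Rasgrf1 member at chr9:89873601-89888200 had 2.45, 2.24 and 2.77.

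On chromosome 7, 5 imprinted loci held a member. Inpp5f, a phosphoinositide phosphatase gene, had ratios of 3.64, 2.76 and 3.41 at chr7:128682201-128695200. Peg3/Usp29, at chr7:6720601-6738600, had 3.18, 2.92 and 2.90. Kcnq1/Kcnq1ot1, at chr7:143291001-143301400, had 3.18, 3.096 and 3.18. Snrpn/Snurf, at chr7:59997401-60018800, had 2.97, 2.54 and 2.23, and H19 was the fifth. H13/Mcts2 at chr2:152679001-152691800, a signal peptidase gene with a retrogene in an intron, had 2.70, 2.52 and 2.68. The narrow members at Trappc9 (chr15:72774601-72777400) and Impact (chr18:12972001-12975600) had ratios of 2.12, 1.65 and 1.54 and of 1.58, 1.40 and 1.25, near the medians of all members.

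Several listed imprinted genes had wide H3K9me3 regions that missed the rule because a KO library still held a call. At Commd1/Zrsr1 (chr11:22963601-22980400) calls covered 15400, 16800 and 13800 bp in WT and 2800, 0 and 2400 bp in KO. At Grb10 (chr11:12002001-12035800), an adaptor gene of insulin signalling, they covered 31800, 31000 and 33000 bp in WT and 11800, 7400 and 12600 bp in KO. At Peg10/Sgce (chr6:4741201-4759400) they covered 16200, 14800 and 15600 bp in WT and 6000, 5600 and 5600 bp in KO. At these 3 loci the groups did not overlap in called bp. At Peg13, inside Trappc9 (chr15:72800801-72817000), calls covered 14800, 15000 and 15400 bp in WT and 10400, 7600 and 8200 bp in KO. The ratios there were 4.91, 4.64 and 4.24 in WT and 2.26, 2.05 and 2.08 in KO. At Peg10/Sgce the ratios overlapped, with 2.54, 2.57 and 2.19 in WT and 2.96, 2.17 and 2.48 in KO. At Grb10 and Commd1/Zrsr1 the KO ratios were lower, where a call gave one. These are raw ratios, each genotype with its own input.

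Of the 18 merged regions of at least 10 kb at listed imprinted genes, 16 had less called sequence in every KO than in every WT library (88.9%, beside 19.2% of all 5387 regions of that width), and 12 of the 18 are the members themselves. The 2 exceptions were Slc38a4 (chr15:96992801-97004600), called only in KO with 1600, 5400 and 11000 bp, and a second region of Kcnq1/Kcnq1ot1 (chr7:143214001-143247000), with 29800, 29800 and 27000 bp in WT and 30600, 30400 and 32000 bp in KO. The regions came from the contrast that chose the members, so these values describe it and are no further support.

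The calls of the other 4 marks were made from separate libraries and took no part in the choice. At the 14 members at imprinted genes, the mean share of a member under an H3K4me3 peak was 7.00%, 7.31% and 7.30% in the WT libraries and 13.9%, 15.3% and 15.8% in the KO libraries. In 12 of them every KO library had more bp under H3K4me3 than every WT library, in 0 the reverse held, 1 overlapped and 1 (Trappc9) had no peak. The same order held in 0.862% of all merged H3K9me3 regions, the reverse in 0.131%, and KO was above WT in 25.3% of the 1776 regions with any H3K4me3 peak. The list of genes was chosen with earlier results of these data known, so no test was made of it.

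H3K4me3 at 3 imprinted members appeared in KO libraries only. At Mest it covered 0 bp in each WT library and 2056, 2976 and 2523 bp in KO. At Plagl1 it covered 0 bp in WT and 925, 1019 and 905 bp in KO. At H19 it covered 0 bp in WT and 274, 469 and 286 bp in KO. The sequence windows shown above for Plagl1 and Mest had no H3K4me3 in any WT library and were under a peak over all 300 bases in every KO library, and the Gpr1 window had 235, 0 and 0 bases in WT and 300 in each KO library. The Airn window had at most 45 bases under a peak in any library, and the Rasgrf1 window had none.

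At other imprinted members a smaller H3K4me3 domain in WT was wider in KO. At Blcap/Nnat it covered 541, 506 and 895 bp in WT and 1730, 2530 and 2434 bp in KO. At Kcnq1/Kcnq1ot1, the locus of another silencing non-coding RNA, it covered 1489, 1088 and 1079 bp in WT and 2241, 2284 and 2555 bp in KO. At Gnas/Nespas it covered 3859, 3109 and 4226 bp in WT and 6068, 5361 and 7341 bp in KO. None of these groups overlapped. The exception was Snrpn/Snurf, with 2282, 2127 and 1808 bp in WT and 2273, 2421 and 2638 bp in KO, where the groups overlapped. Impact, which regulates translation under amino acid starvation, had 1032, 1566 and 1028 bp in WT and 2074, 2340 and 2261 bp in KO.

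H3K27me3 covered a mean of 12.6%, 14.8% and 14.8% of the imprinted members in WT and 31.6%, 30.0% and 29.5% in KO. All KO libraries were above all WT libraries at 6 of the 14, below at 0, and 4 had no call, and over all regions the shares were 0.970% above and 0.403% below. Among regions with any H3K27me3 call they were 5.48% and 2.28%. At Nap1l5 H3K27me3 covered 0 bp in each WT library and 5800, 5400 and 3600 bp in KO. At Mest it covered 0, 3600 and 0 bp in WT and 10200, 10400 and 9600 bp in KO. At Plagl1 it covered 2000, 4800 and 3000 bp in WT and 10400, 8400 and 8800 bp in KO. At the Rasgrf1 member it was broad in both genotypes, with 13200, 13200 and 13600 bp in WT and 13200, 14600 and 13800 bp in KO.

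H3K4me1 covered a mean of 37.2%, 36.9% and 34.3% of the imprinted members in WT and 60.2%, 59.2% and 57.3% in KO, with all KO above all WT libraries at 8 of the 14 and below at 0 (1.36% and 1.90% of all regions). H3K27ac covered 41.9%, 32.3% and 39.0% in WT and 53.4%, 54.3% and 53.5% in KO, with 3 above and 0 below (2.01% and 1.68% of all regions). Among regions with any call of the mark, 4.34% were above and 6.06% below for H3K4me1, and 6.44% and 5.40% for H3K27ac. Mest carried neither mark in WT, and in KO H3K27ac covered 17400, 13600 and 13600 bp and H3K4me1 17400, 17400 and 16600 bp of its 17400 bp. At H19 H3K27ac covered 1400, 1000 and 3000 bp in WT and 13600, 12400 and 12400 bp in KO, and H3K4me1 600, 3400 and 400 bp in WT and 11400, 9600 and 9400 bp in KO. Blcap/Nnat differed between these marks, since H3K4me1 covered 8200, 7800 and 8400 bp in WT and 12000, 11800 and 12800 bp in KO, while H3K27ac overlapped between the genotypes with 10400, 3200 and 11600 bp in WT and 5400, 6000 and 7600 bp in KO. Among members off the list, the Rasgrf1 member had no H3K4me1 in WT and 2600, 2000 and 2000 bp in KO, and the Gpr1 member had 8000, 10400 and 8800 bp in WT and 12800, 12600 and 12600 bp in KO.

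**Figure D2:**
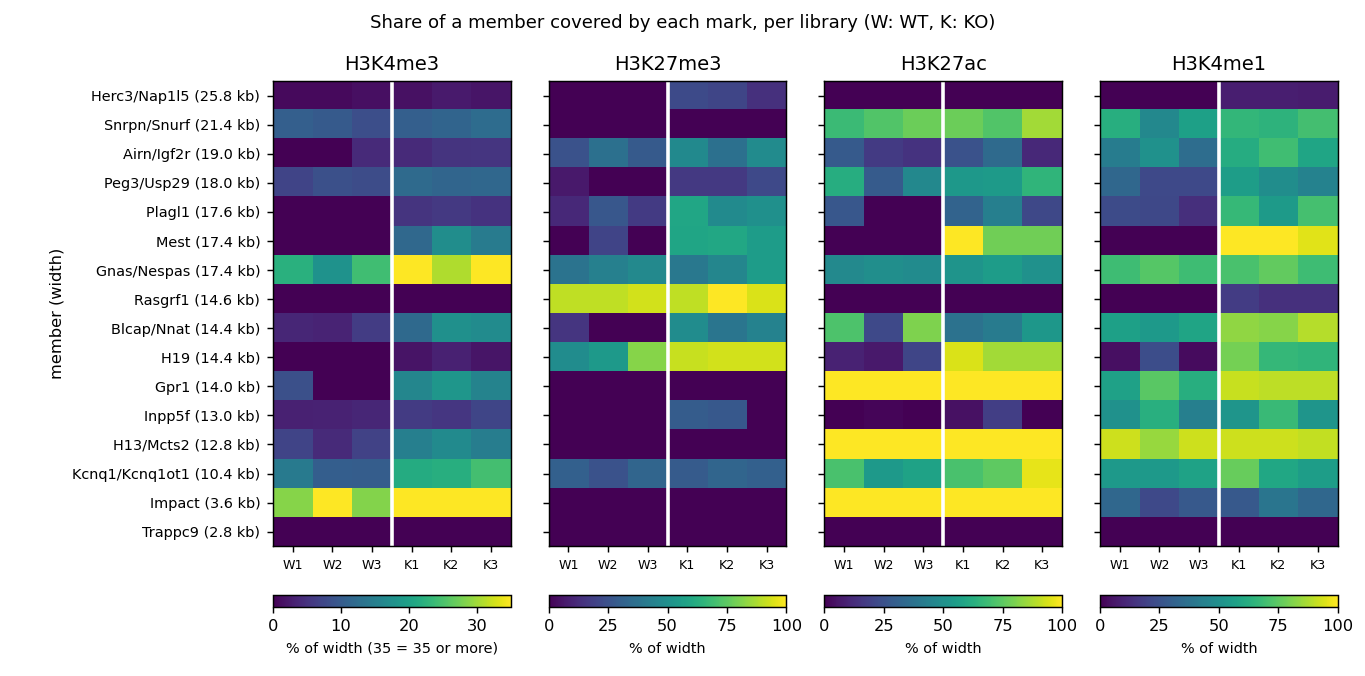
Share of the width of each member under a call of H3K4me3, H3K27me3, H3K27ac and H3K4me1 (colour, percent of width, with H3K4me3 capped at 35), for WT libraries W1 to W3 left and KO libraries K1 to K3 right of the white line. Rows are the 14 WT-only H3K9me3 regions at listed imprinted genes with those at Gpr1 and Rasgrf1, by width, and Mest is dark in WT, but for H3K27me3 in 1 library, and bright in KO.

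Across all 1233 WT-only regions the other marks covered more sequence in KO than in WT, by small amounts. The mean covered share of a member was 0.443%, 0.420% and 0.457% for H3K4me3 in WT and 0.638%, 0.768% and 0.820% in KO. For H3K27me3 it was 6.83%, 8.38% and 8.47% in WT and 9.39%, 10.1% and 8.83% in KO. For H3K27ac it was 16.6%, 16.4% and 17.4% in WT and 17.98%, 18.6% and 18.3% in KO, and for H3K4me1 17.1%, 16.7% and 16.8% in WT and 18.4%, 18.5% and 17.8% in KO. The KO and WT libraries did not overlap for any of the 4 marks. An exact two-sided permutation test over 3 and 3 libraries cannot give a p under 0.1, so no such difference could pass 0.05, and the number of libraries sets this limit.

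The lists of some marks held more sequence in KO throughout, and the members were therefore also read against all merged H3K9me3 regions. Called H3K4me3 sequence came to 17.2 to 19.3 Mb per WT library and 19.02 to 22.1 Mb per KO library, H3K27me3 to 214 to 259 Mb and 267 to 278 Mb, H3K27ac to 380 to 393 Mb and 411 to 419 Mb, and H3K4me1 to 486 to 488 Mb and 476 to 483 Mb. The KO minus WT difference of the mean covered share was 0.302 percentage points in members and 0.0998 in all regions for H3K4me3, 1.53 and 0.763 for H3K27me3, and 1.498 and 0.867 for H3K27ac. For H3K4me1 it was 1.37 in members and -0.0817 in all regions. The covered share of members less that of all regions was higher in every KO than in every WT library for each mark. The group means differed by 0.202, 0.769, 0.631 and 1.46 percentage points in the same order. The SD was 0.0026, 0.289, 0.243 and 0.210 in WT and 0.053, 0.454, 0.190 and 0.245 in KO (n = 3 each). Without the 14 members at imprinted genes, an alternative added after the data were seen, the differences were 0.116, 0.599, 0.465 and 1.21.

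**Figure D3:**
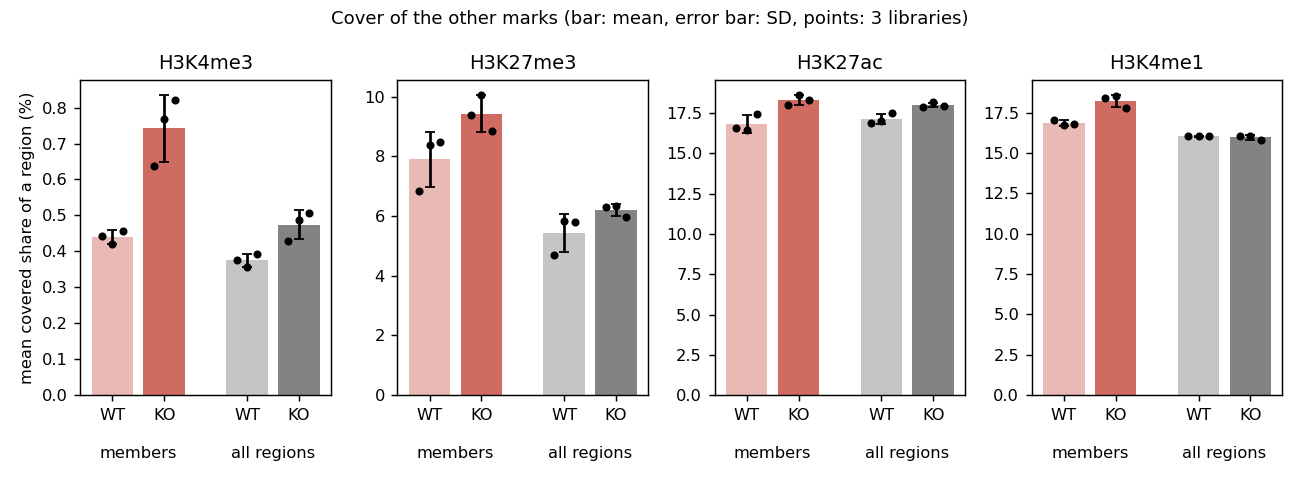
Mean covered share of a region (percent, each axis from 0) for the 4 other marks in the 1233 WT-only H3K9me3 regions (red, labelled members) and in all 52065 merged regions (grey), WT lighter and KO darker. Bars are means, error bars SD and points the 3 libraries, and the KO points of the members lie above their WT points in each panel, as for H3K4me3 with 0.638% to 0.820% above 0.420% to 0.457%.

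Few members gained or lost a mark outright, that is by a change between 0 of 3 and 3 of 3 libraries. The counts without a library use a relaxed rule and can only rise. H3K4me3 was gained at 7 members (0.568%, beside 0.198% of all regions) and lost at 1 (0.0811%, beside 0.0211%), or at 2 without WT library 2. H3K4me1 was gained at 11 (0.892%, beside 0.321%) and lost at 2 (0.162%, beside 0.375%), with 18 gained without KO library 2 and 6 lost without WT library 3, or 4 lost without any other single library. H3K27me3 was gained at 7 (0.568%, beside 0.346%) and lost at 3 (0.243%, beside 0.150%), with 16 gained and 6 lost without WT library 1, 12 gained without WT library 2 or 3, 13 gained without KO library 3, and 5 lost without WT library 3 or without KO library 1 or 2. H3K27ac was gained at 6 (0.487%, beside 0.403%) and lost at 7 (0.568%, beside 0.665%), with 14 gained without KO library 1, 10 without WT library 1 or KO library 3, and 12 lost without WT library 2. The members at imprinted genes made up 3, 2, 1 and 1 of those that gained H3K4me3, H3K4me1, H3K27me3 and H3K27ac and 0 of those that lost a mark.

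Besides Mest, Plagl1 and H19, H3K4me3 was gained at 4 members off the imprinted list. At Nme7 (chr1:164373601-164379200), which encodes a nucleoside diphosphate kinase family protein of the centrosome, it covered 313, 735 and 699 bp in KO. At Txnrd1/Eid3 (chr10:82863001-82869400), where Txnrd1 is thioredoxin reductase, it covered 250, 514 and 281 bp, at Fdft1 (chr14:63165001-63176800), which encodes squalene synthase, 87, 96 and 402 bp, and at Cdca5 (chr19:6086601-6094200), which encodes sororin of the cohesin complex, 61, 10 and 321 bp. H3K27ac and H3K4me1 were called at these 4 members in every library of both genotypes. The one loss was at a member in Dnah8, an axonemal dynein gene (chr17:30870401-30878000), with 499, 646 and 555 bp in WT and 0 bp in each KO library. Among the 63 members with any H3K4me3 peak, all KO libraries were above all WT libraries at 28 (44.4%, beside 25.3% of all regions with a peak) and below at 1 (1.59%, beside 3.83%).

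For the broad marks the shares of members with a call were as follows. All KO libraries were above all WT libraries in covered bp at 19 of 292 members with any H3K27me3 call (6.51%, beside 5.48%) and below at 4 (1.37%, beside 2.28%). For H3K27ac 19 of 370 were above (5.14%, beside 6.44%) and 12 below (3.24%, beside 5.40%), and for H3K4me1 31 of 409 were above (7.58%, beside 4.34%) and 6 below (1.47%, beside 6.06%). The shares above for H3K27me3 and H3K27ac were near those of all regions with such a call, and those for H3K4me1 were further from them.

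Read counts allowed a test where a region of the other mark was called in all 6 libraries with similar length and overlapped a member. Such a region can reach far beyond the member, and its counts are those of the whole region. The counts were fitted over all such regions of a mark with edgeR's quasi-likelihood test, with Benjamini-Hochberg adjusted p under 0.05. For H3K27me3, 26 tested regions overlapped members, of which 6 (23.1%) were higher and 6 (23.1%) lower in KO, beside 15.8% and 19.3% of all 2025 tested. For H3K27ac, 49 of 125 (39.2%) were higher and 28 (22.4%) lower, beside 26.4% and 26.5% of 4054. For H3K4me1, 52 of 176 (29.5%) were higher and 31 (17.6%) lower, beside 23.4% and 20% of 10959. The median log2 fold change at members was 0.023 for H3K27me3, 0.036 for H3K27ac and 0.024 for H3K4me1, and over all tested regions it was -0.006, -0.004 and -0.005. The lean to higher depended on scaling, since with libraries scaled by their totals alone 31 H3K27ac regions at members were higher and 41 lower, and 32 H3K4me1 regions were higher and 51 lower. That scaling moved the median of all tested regions to -0.049 and -0.052. Without WT library 2, WT library 3 or KO library 1, 3 H3K27me3 regions were lower in place of 6.

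The tested regions at imprinted members that passed were all higher in KO, under that fit. H3K4me1 was higher at 6 of 8 tested regions and lower at 0. At Kcnq1/Kcnq1ot1 (H3K4me1 region chr7:143243601-143295200) the level was 134, 127 and 132 counts per 1000000 tested reads (CPM) in WT and 249, 250 and 255 CPM in KO, a log2 fold change of 0.94 ± 0.03 (SE, edgeR adjusted p = 4.53e-26). This H3K4me1 region is 51600 bp wide and lies largely outside the member of 10400 bp. At Blcap/Nnat the H3K4me1 level was 52.9, 51.8 and 53.5 CPM in WT and 87.2, 92.5 and 84.8 CPM in KO, a log2 fold change of 0.74 ± 0.04 (edgeR adjusted p = 1.81e-16). At Gnas/Nespas the H3K4me1 log2 fold change was 0.56 ± 0.05 (edgeR adjusted p = 1.64e-10). In each of them the WT and KO libraries were apart by far more than libraries of a genotype were from each other.

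The one H3K27me3 region tested at an imprinted member was at Kcnq1/Kcnq1ot1 (chr7:143298001-143505400), a Polycomb domain far wider than the member. Its level was 5148, 5197 and 5355 CPM in WT and 7941, 8144 and 7944 CPM in KO, a log2 fold change of 0.61 ± 0.03 (edgeR adjusted p = 1.71e-47). Both tested H3K27ac regions, at H13/Mcts2 and Gnas/Nespas, were higher, with log2 fold changes of 0.12 ± 0.02 (edgeR adjusted p = 7.75e-05) and 0.16 ± 0.03 (edgeR adjusted p = 6.56e-05). A second fit took every region called in all 6 libraries with its called length as an offset. In it H3K27ac had log2 fold changes of 0.19 at H13/Mcts2 and 0.25 at Gnas/Nespas. In the same fit H3K27me3 was higher at 4 of 5 regions at imprinted members, H3K4me1 at 9 of 16 and H3K27ac at 5 of 11, and 0 were lower, and Plagl1 had the largest H3K27me3 log2 fold change, 0.98 ± 0.11 (edgeR adjusted p = 0.000145). Over all regions in that fit, 1.72%, 4.06% and 8.71% were higher and 1.03%, 1.62% and 4.43% lower, in the same order.

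Off the imprinted list, tested regions changed both ways. Several were far wider than the member they overlap, so their fold changes are not those of the member alone. The H3K4me1 region at Azin2 was 76400 bp wide, for the member chr4:128967401-128969800. The H3K27ac region at Ppp6r3 was 47200 bp wide and the wider one at Grin2a 45800 bp. H3K27me3 was higher at Syna, the gene of the placental fusion protein syncytin A, with 34.6, 34.9 and 33.2 CPM in WT and 50.7, 58.1 and 58.8 CPM in KO (log2 fold change 0.71 ± 0.12, edgeR adjusted p = 2.92e-07). It was also higher at the Rasgrf1 member, with 517, 505 and 506 CPM in WT and 624, 618 and 637 CPM in KO (log2 fold change 0.30 ± 0.05, edgeR adjusted p = 1.45e-08), and lower at Zbtb10, a zinc-finger gene (log2 fold change -0.34 ± 0.05, edgeR adjusted p = 4.65e-09). With the length offset the Zbtb10 value was -0.22 and no longer passed (edgeR adjusted p = 0.104). H3K27ac was higher at Ppp6r3, a regulatory subunit of protein phosphatase 6, and lower at 2 regions of Grin2a, a glutamate receptor subunit, with log2 fold changes of 0.44 ± 0.04, -0.58 ± 0.05 and -0.44 ± 0.03. Mtus2 (-0.55 ± 0.07) and Ptprg (-0.47 ± 0.07) also had lower H3K27ac. H3K4me1 was higher at Tm9sf2 (0.55 ± 0.10) and Ppp6r3 (0.38 ± 0.03). It was lower at Bicc1 (-0.37 ± 0.04), which encodes an RNA-binding protein, at Slc10a1 (-0.32 ± 0.09), a bile acid transporter gene, and at Azin2 (-0.31 ± 0.02), an antizyme inhibitor gene. With the length offset the H3K4me1 values were 0.24 at Ppp6r3, -0.24 at Bicc1 and -0.25 at Azin2, while Tm9sf2 (0.45, edgeR adjusted p = 0.0598) and Slc10a1 (-0.19, edgeR adjusted p = 0.382) no longer passed.

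**Figure D4:**
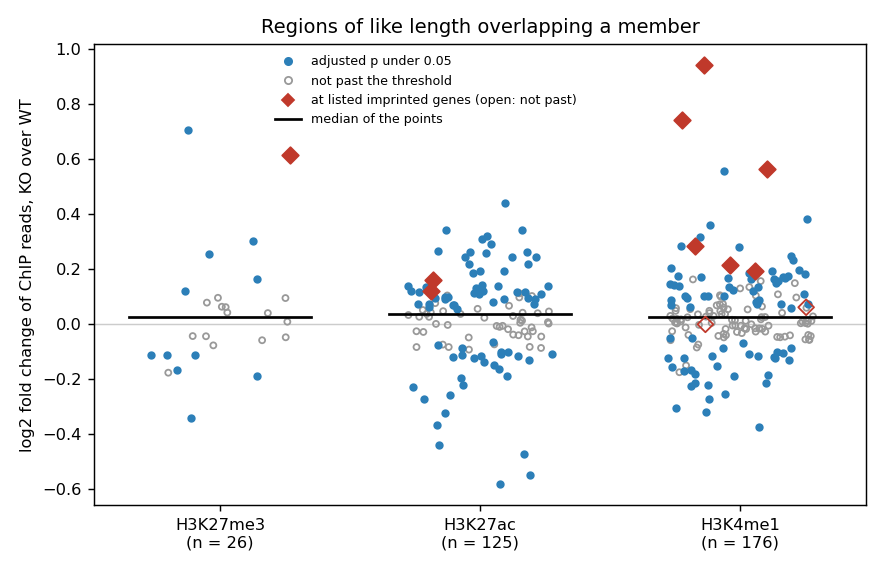
Log2 fold change of ChIP reads, KO over WT (y axis), of each tested region of H3K27me3, H3K27ac and H3K4me1 that overlaps a WT-only H3K9me3 region (26, 125 and 176 regions), with the median as a black line. Filled points passed an adjusted p of 0.05 and red diamonds are at listed imprinted genes, where the 9 filled diamonds all lie above 0 while the medians are 0.023, 0.036 and 0.024.

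The other gene groups held few WT-only regions. Of 39 H3K9me3 regions at germline genes 1 was a member (2.56%, beside 2.37% of all regions), in an intron of Mael, a piRNA pathway gene, and of 12 at naive pluripotency genes 1 was, at Esrrb. Genes of the H3K9 methylation machinery, among them Trim28, Setdb1 and Zfp57, had 20 H3K9me3 regions and 0 members, lineage genes 6 and 0, and genes of the two-cell stage 7 and 0. Zinc-finger genes, whose clusters carry broad H3K9me3, had 17 members among 497 regions (3.42%), olfactory receptor genes 9 of 415 (2.17%), vomeronasal receptor genes 5 of 331 (1.51%) and clustered protocadherins 2 of 21 (9.52%). The widest member at a zinc-finger gene was at Zfp787 (chr7:6129801-6138600), with WT ratios of 4.82, 3.88 and 3.85, 0, 600 and 2400 bp of H3K4me1 in WT and 6400, 6200 and 6800 bp in KO. The Mael member had no call of any other mark, and the Esrrb member lay under H3K27ac and H3K4me1 over its whole 4200 bp in every library and had an H3K4me3 peak in KO library 3 alone.

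Among members with at least 10 input reads summed over the WT lists, those with the highest read ratios were mostly 3400 bp wide or less and rested on few input reads. They lay at or nearest to Lrif1 (chr3:106703601-106704600, summed ratio 11.2), Olfr1168 (11.1), Vmn1r158 (9.83), Vmn2r37 (8.83 and 6.71), Ywhaq (7.74), Cdh10 (7.47), Zfp534 (6.85) and Gm10330 (6.45), and Blcap/Nnat was the only wide one among these 10. Lrif1 encodes a nuclear receptor-interacting factor that binds the heterochromatin protein HP1, and its member had 38, 49 and 47 ChIP reads over 2, 5 and 5 input reads. The members with the highest score in their lowest WT library lay near Gm3047, Vmn1r119 and Mup11 and had 0 input reads in each WT list. In all, 16 members had 0 input reads in a WT list.

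At the other end, 19 members had fewer ChIP than input reads summed over the WT lists. The raw counts were not scaled for depth, so these 19 members can still be called enriched in the lists. Their median width was 7000 bp, and their input density was 41.0 reads per kb, as against 20.7 over all members. They included wide members near Gm4791 (chr9:47041801-47061000, ratio 0.84) and Grm4 (chr17:27401201-27419800, 0.91) and in Dnah8 (chr17:30628801-30639000, 0.88), and others near Dynlt1c (0.90) and Gm3755 (0.90). The KO and WT inputs differed in the windows of these 19 members by a median of -0.005 on the log2 scale in the H3K9me3 lists, from -0.20 at Dnah8 to 0.19 at Grm4. In the H3K4me1 lists, which gave a value for 17 of them, the median was -0.013. The part of input density in these calls was not tested.

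WT-only regions lay in introns more often than H3K9me3 regions as a whole and overlapped promoters at a like share. They overlapped a promoter (5000 bp upstream to 100 bp downstream of a protein-coding start) in 87 cases, 7.06% (95% Wilson interval 5.76 to 8.62%), as against 7.204% of all regions and 7.77% of those called in all 6 libraries. Their midpoint lay in an intron in 32.2% (Wilson interval 29.6 to 34.9%), as against 27.49% of all regions (27.1 to 27.9%) and 22.7% of those called throughout. It lay in an exon in 2.84%, 3.61% and 2.199%, and outside protein-coding genes in 65.0% (62.3 to 67.6%), 68.9% (68.5 to 69.3%) and 75.1%, in the same order. The 198 KO-only regions had a still higher share of midpoints in introns, 48.0% (41.1 to 54.9%), and 40.4% outside protein-coding genes. The excess in introns was therefore not particular to WT-only regions. The median distance to the nearest protein-coding start was 55387 bp for members and 69824 bp for regions called throughout. Members took from 1.79% of the H3K9me3 regions of chromosome 16 to 2.90% of those of chromosome 7.

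Reads in called H3K9me3 regions ranged from 8548342 to 12105343 per library, and the median member had 82, 81 and 71 ChIP reads in the WT lists, which limits the precision of single ratios. The promoter marks went with the label of the cells, as 7 of 8 embryonic stem cell markers had H3K4me3 and H3K27ac in every library. H3K4me3 was called at 2 to 3 of 5 fibroblast and 0 to 2 of 4 primitive endoderm markers. H3K27ac was called at 1 to 3 of 5 and 1 to 2 of 4, so some markers of other cells carried the marks too. At the Nfkbia promoter H3K4me3 covered 1107, 1168 and 1299 bp in WT and 0, 590 and 768 bp in KO. In bulk chromatin, fewer cells with a mark and less of it per cell cannot be told apart. The lists do not separate the parental copies, so which copy carried a call cannot be told apart either.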

How the data were processed

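ChIP-seq of 5 histone marks had been done in 3 WT and 3 KO libraries each. Per the labels, the authors used Trim Galore 0.6.6, Bowtie2 2.4.4, SAMtools 1.15, deepTools 3.5.1, SICER (epic2) 0.0.52 and MACS2 2.2.7.1 on GRCm38. The methods do not discuss H3K9me3, and the labels name 1 antibody for H3K27ac and H3K4me1 where the methods name another for H3K27ac. For H3K4me3 the authors deposited MACS2 peaks with a fold enrichment, −log10 p-values and q-values and a score. For the other marks they deposited epic2 regions per library, in steps of 200 bp, with ChIP and input read counts, an FDR and p-value, a score and a log2 fold change.

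Calls were merged with Python 3.11.15 and pandas 2.3.3, and genes were those of GENCODE M21. Regions on chr2:165000001-171000000, chr8:40000001-129000000 and chr12:103000001-119000000 were left out. ChIP counts per merged region were fitted with edgeR 4.0.16 in R 4.3.3 (TMM) for regions called in all 6 libraries whose shortest called length was at least 0.8 of the longest. CPM are per 1000000 tested reads. Standard errors were derived from the F statistic and the log2 fold change. In simulated counts the fit recovered 97 to 99% of changes of 0.5 on the log2 scale. The simulation held as many rises as falls, so it does not bear on how the results depend on scaling. H3K4me3 lists hold no counts and were compared by covered bp. The Wilson intervals treat regions as independent and cover the counting error of a share only, not the spread between clones. The members are also part of the set of all regions beside which they are given. The permutation test planned for covered shares cannot pass 0.05, and its p is not given.

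The members and gene lists were chosen with earlier results of these data known. Members named were the 10 with the most called bp, the 10 with the highest ratio (at least 10 input reads), those at listed genes, the 3 widest at each gene family, those that gained or lost H3K4me3, the 3 with the highest and lowest scores, and up to 5 tested regions per mark and direction. Not all of these are printed. The members at Gpr1 and Rasgrf1, and the imprinted regions outside the rule, were named after their values were seen.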

Additional observations from a re-analysis of the deposited data

How the results depend on the processing

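Of 275 results under an alternative, 238 were labelled as unchanged, 37 counts or shares moved and 0 single values changed sign. A count was held unchanged when it stayed close to the reported value. A difference of a covered share was held unchanged when it kept its sign, whatever its size. The balance of higher and lower regions nevertheless turned for H3K27ac and H3K4me1 under scaling by totals alone. The KO minus WT difference of the covered share kept its direction in all 96 alternatives run on it. With a library left out, the gains and losses by call can only rise. The number of members, from calls merged anew, rose each time. Leaving out each library in turn gave 1400 to 3012 members. It gave 7 to 10 members that gained H3K4me3 and 1 to 2 that lost it, 9 to 16 and 4 to 6 for H3K27me3, 7 to 14 and 7 to 12 for H3K27ac, and 12 to 18 and 4 to 6 for H3K4me1. It gave 4 to 6 H3K27me3 regions at members higher and 3 to 5 lower in KO, 43 to 51 and 24 to 27 for H3K27ac, and 47 to 51 and 27 to 33 for H3K4me1. Without the members at listed imprinted genes, an alternative chosen after seeing the data, 4 members gained H3K4me3. With the same number of top-ranked H3K9me3 calls per library there were 583 members. With the H3K27ac lists alone restricted in that way, 10 of the 1233 members gained H3K27ac. With members widened by 1000 bp, 4 lost H3K4me1, and with promoters of 1000 bp on either side 3.81% of members overlapped one. With the length offset, which tested more regions, 2 H3K27me3, 14 H3K27ac and 9 H3K4me1 regions at members were lower. Scaled by totals alone, 31 H3K27ac regions were higher and 41 lower, and 32 H3K4me1 regions were higher and 51 lower. Otherwise the cause was not tested.

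The replicate numbers gave no clear pairing of the libraries. Same-numbered libraries correlated at 0.11, 0.04 and 0.05 for H3K27me3, -0.08, 0.03 and -0.02 for H3K27ac and 0.02, -0.00 and 0.01 for H3K4me1. For H3K27me3 every library correlated best with its own number, though weakly, and other pairs ranged from -0.07 to 0.03. For H3K27ac and H3K4me1 not every library did so. With the replicate number as a block, 6 H3K27me3 regions at members were higher and 6 lower, 50 and 28 H3K27ac regions, and 54 and 32 H3K4me1 regions. Depth limits narrow members most, since a list holds reads only where a region was called.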
